A study of Mus musculus with 6 samples.

Results

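The angiogenic ligands and receptors described here are 10 mouse genes out of 19938 measured, taken by name: the vascular endothelial growth factor (VEGF) receptors Kdr, Flt1 and Flt4, the VEGF ligands Vegfc and Vegfd, the angiopoietins Angpt1 and Angpt2, their receptors Tek and Tie1, and the ligand apelin (Apln). All 10 were found on the array, Vegfd through its older name Figf, and each is measured by 1 probe set. The names, and the gene lists used further below, were chosen with earlier results of these data known. The shares of all genes given beside their counts are therefore descriptive. RNA came from skin of male BALB/c mice, an inbred strain, aged 5 to 6 weeks. The 3 groups are day 4 wounds, day 1 wounds and intact skin, with 2 arrays each. Wounded mice carried 2 punch wounds of 4 mm, cut down to the fascia, and punches of 8 mm removed the wound with the skin around it, or intact skin, so that uninjured tissue is part of every wound sample. Replicates are labelled biological, without a statement of how many animals or wounds an array holds, so p-values measure the spread between arrays.

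New vessels in a wound sprout from existing capillaries. VEGF-A, made by hypoxic and inflammatory cells, acts on endothelium through KDR, the main signalling receptor, while FLT1 binds VEGF-A tightly, signals little and acts largely as a decoy. VEGF-C and VEGF-D act through FLT4, above all on lymphatic vessels. Angiopoietin 1, from cells around the vessel, keeps endothelium quiet through the receptor TEK, angiopoietin 2 is released by endothelium itself and can oppose it, and TIE1 is a partner of TEK with no well established ligand of its own. Apelin is made by endothelial sprout tips and binds the receptor APLNR.

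Values are log2 intensities, so a difference of 1 is a doubling, and since probe sets differ in brightness a level is compared only with the same gene on other arrays. Array medians lay between 6.89 and 6.93, and signal was not tested against background. Lower quartiles of 5.29 to 5.37 mark dim probe sets, and of the members only Angpt1 lay under them, on both intact arrays. Replicate arrays correlated over genes, which are not independent, with r = 0.986 for the day 4 pair, 0.989 for the day 1 pair and 0.997 for the intact pair. Basal keratinocyte markers, which define the labelled tissue, averaged 10.94 to 11.30 over the 6 arrays.

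On day 1, 7 of the 10 rose (Kdr, Flt1, Flt4, Vegfd, Angpt1, Angpt2 and Tie1) and none fell at an adjusted p under 0.05 in limma, where 14.7% of all genes rose and 14.6% fell. On day 4, 6 of the 10 rose (Kdr, Flt1, Flt4, Vegfc, Vegfd and Tie1) and none fell, against 14.8% and 12.1% of all genes. Kdr, Flt1, Flt4, Vegfd and Tie1 were called on both days. The members' median log2 change was 0.52 on day 1 and 0.50 on day 4, against −0.04 and −0.03 over all genes. All 4 wound arrays lay above both intact arrays for 10 of 10 members, as for 21.9% of all genes. By the moderated F test of the 3 groups 8 of the 10 members differed, and 30.7% of all genes did. In whole skin more cells of a type and more RNA per cell cannot be told apart.

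**Figure D1:**
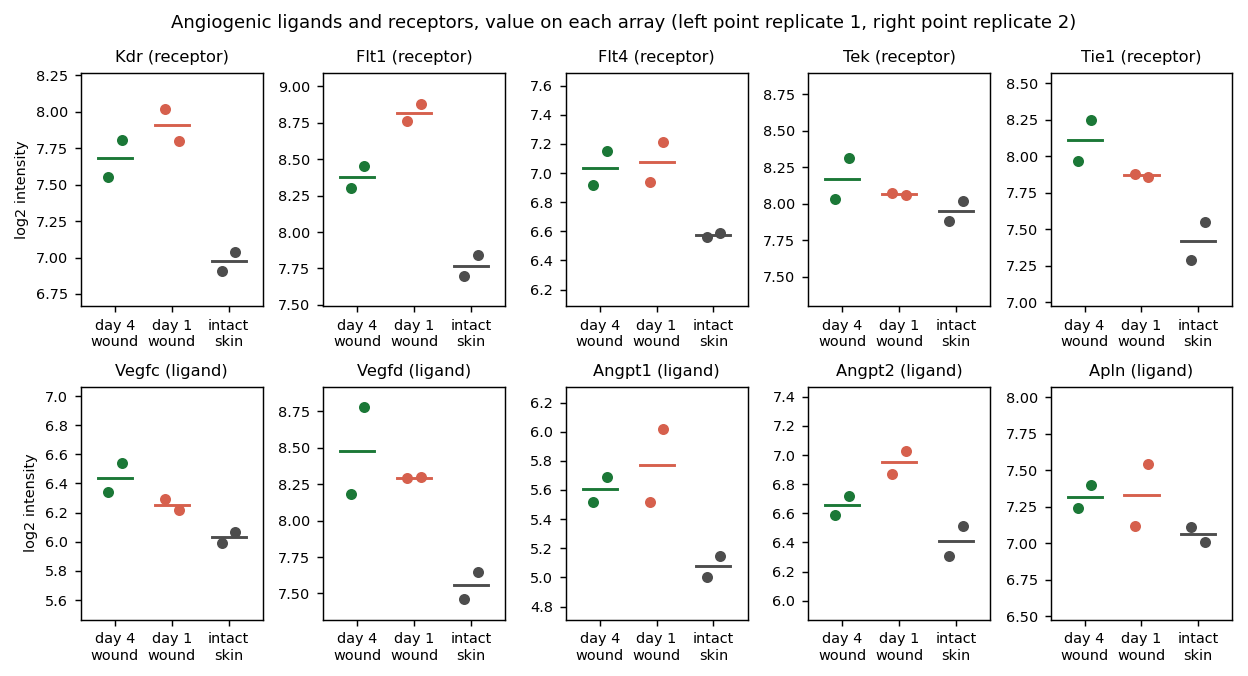
Log2 intensity of each of the 10 genes on each array, in day 4 wounds, day 1 wounds and intact skin; points are arrays, lines are group means, and every panel spans 1.6 log2 units around its own centre. All wound points lie above both intact points in every panel, by little for Tek and Apln.

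Flt1 and Kdr had the largest rises on day 1. Flt1 had log2 intensities of 8.76 and 8.88 in day 1 wounds, against 7.70 and 7.84 in intact skin, a rise of 2.07-fold (1.05 log2 units, SE 0.09, adjusted p = 6.39e-04). In day 4 wounds it had 8.30 and 8.45, 1.52-fold above intact skin (log2 change 0.61, SE 0.09, adjusted p = 0.00586). Flt1 arrays of the 3 groups did not overlap, with day 1 highest, day 4 between and intact skin lowest. Kdr had 8.02 and 7.80 in day 1 wounds, against 6.91 and 7.04 in intact skin, a 1.91-fold rise (SE of the log2 change 0.12, adjusted p = 0.00238). In day 4 wounds Kdr had 7.55 and 7.81, 1.63-fold above intact skin (adjusted p = 0.00843), and its day 4 and day 1 arrays overlapped. Flt4, the receptor of lymphatic endothelium, moved less. It had 6.94 and 7.21 in day 1 wounds, against 6.56 and 6.59 in intact skin, a 1.41-fold rise (adjusted p = 0.0232). Its 6.92 and 7.15 in day 4 wounds, a 1.38-fold rise (adjusted p = 0.0339), overlapped with day 1.

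The VEGF receptors with the largest day 1 changes, Kdr and Flt1, and the endothelial receptor with the smallest, Tek, are given here with the 250 bases before the annotated gene start, from RefSeq on assembly GRCm38.p6, to let the upstream sequences be set beside these responses. Kdr is at chr5:75978456-75978705 and Flt1 at chr5:147726012-147726261, both on the minus strand, and Tek is at chr4:94739039-94739288 on the plus strand. Sequences run 5′ to 3′ along the gene, and capitals mark a match to CCGGAA, the letters of a site type bound by ETS factors, on either strand.
Kdr: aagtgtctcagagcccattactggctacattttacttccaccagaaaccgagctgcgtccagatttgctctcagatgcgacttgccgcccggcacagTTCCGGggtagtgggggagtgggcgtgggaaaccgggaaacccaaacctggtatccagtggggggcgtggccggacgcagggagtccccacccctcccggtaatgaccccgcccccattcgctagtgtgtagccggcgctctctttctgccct
Flt1: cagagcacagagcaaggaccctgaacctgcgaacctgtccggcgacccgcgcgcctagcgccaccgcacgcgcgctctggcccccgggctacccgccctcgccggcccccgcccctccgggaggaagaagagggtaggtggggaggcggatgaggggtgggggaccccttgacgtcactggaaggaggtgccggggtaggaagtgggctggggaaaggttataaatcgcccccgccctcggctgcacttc
Tek: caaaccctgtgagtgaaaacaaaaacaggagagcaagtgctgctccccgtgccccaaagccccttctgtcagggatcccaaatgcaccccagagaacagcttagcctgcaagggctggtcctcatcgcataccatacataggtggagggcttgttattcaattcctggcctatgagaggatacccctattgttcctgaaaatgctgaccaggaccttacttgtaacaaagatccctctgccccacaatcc
Promoter windows were found for 8 of the 10 members, and none for Angpt1 and Angpt2. CCGGAA on either strand was present in 1 of the 8, that of Kdr, and in 12% of 32851 promoter windows of the same length. Other forms of ETS site were not searched, so an unmarked window is not shown to lack one. The hypoxia response core ACGTG, present in 16.6% of the windows, and the forkhead-type letters GTAAACA, present in 3.17%, were in 0 of the 8. With 1 match in all, no motifs overlapped, and a match is a description of the sequence alone.

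Of the ligands, Vegfd had the highest rise on day 4. It had 8.18 and 8.78 in day 4 wounds, against 7.46 and 7.65 in intact skin, a rise of 1.9-fold (0.93 log2 units, SE 0.19, adjusted p = 0.0148). The day 4 arrays were 0.6 apart, the widest replicate gap among the members. In day 1 wounds Vegfd had 8.29 and 8.30, a 1.67-fold rise over intact skin (adjusted p = 0.0284), and both values lay inside the day 4 range. Vegfc had 6.34 and 6.54 in day 4 wounds, against 5.99 and 6.07 in intact skin, a rise of 1.33-fold (0.41 log2 units, SE 0.09, adjusted p = 0.0212). In day 1 wounds Vegfc had 6.29 and 6.22, above intact skin on both arrays, with a log2 change of 0.23 and a 95% interval of 0.00 to 0.45 (adjusted p = 0.121). The array order of Vegfc was day 4 highest, then day 1, then intact skin, without overlap.

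The other VEGF ligands and the co-receptors were taken from a list of 7 genes, all measured, of which 4 rose and 1 fell on day 1 and 3 rose and none fell on day 4 (median log2 changes 0.42 and 0.54; rises 2 to 4 and 1 to 4 with 1 array left out). Of all genes 14.7% rose and 14.6% fell on day 1, and 14.8% rose and 12.1% fell on day 4. The 1 fall among 7 is near the share of all genes. Vegfa, the main ligand of KDR and FLT1, had 9.48 and 10.06 in day 1 wounds, against 8.67 and 8.65 in intact skin (log2 change 1.11, adjusted p = 0.00558), and 9.22 and 9.39 in day 4 wounds (log2 change 0.65, adjusted p = 0.0429). Pgf, placental growth factor, which binds FLT1 but not KDR, had 7.06 and 7.88 in day 1 wounds, against 6.23 and 6.22 in intact skin (log2 change 1.25, adjusted p = 0.0117), and its day 4 change of 0.57 did not pass (adjusted p = 0.142). Vegfb, another ligand of FLT1, changed by 0.02 and −0.09 on days 1 and 4 and did not pass (adjusted p = 0.929 and 0.538). The co-receptors differed in sign on day 1: Nrp1, which assists KDR, rose by 1.14 (adjusted p = 0.00182), and Nrp2, which assists FLT4, fell by 0.59 (adjusted p = 0.0171). On day 4 Nrp1 was higher by 1.19 (adjusted p = 0.00211) and Nrp2 had a log2 change of −0.31 (adjusted p = 0.130). Ccbe1, which helps to activate VEGF-C, rose on both days (log2 changes 0.42 and 0.54, adjusted p = 0.0337 and 0.0153). With 1 array left out, Nrp1 passed in all 6 fits on both days and Vegfa on day 1. On day 4 Vegfa did not pass without either of the day 4 or intact arrays (highest adjusted p = 0.178). Pgf and Nrp2 on day 1 and Ccbe1 on both days did not pass without either intact array, nor Ccbe1 without replicate 2 of the wound group.

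Both angiopoietins rose on day 1 and neither passed on day 4. Angpt2 had 6.87 and 7.03 in day 1 wounds, against 6.31 and 6.51 in intact skin, a rise of 1.45-fold (0.54 log2 units, SE 0.11, adjusted p = 0.0106). In day 4 wounds it had 6.59 and 6.72, above both intact arrays and below both day 1 arrays (log2 change 0.25 from intact skin, adjusted p = 0.137). Angpt1 had 5.52 and 6.02 in day 1 wounds, against 5.00 and 5.15 in intact skin, a 1.62-fold rise (adjusted p = 0.0234). In day 4 wounds Angpt1 had 5.52 and 5.69, with a log2 change of 0.53 (adjusted p = 0.0610). As its intact values are dim, the Angpt1 folds rest on dim signal.

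Of the angiopoietin receptors Tie1 rose on both days and Tek passed on neither. Tie1 had 7.97 and 8.25 in day 4 wounds, against 7.29 and 7.55 in intact skin, a rise of 1.61-fold (0.69 log2 units, SE 0.13, adjusted p = 0.0103). In day 1 wounds Tie1 had 7.88 and 7.86, a 1.37-fold rise (adjusted p = 0.0401). Tek had 8.03 and 8.31 in day 4 wounds and 8.07 and 8.06 in day 1 wounds, against 7.88 and 8.02 in intact skin. Its log2 changes of 0.22 on day 4 (95% interval −0.05 to 0.49, adjusted p = 0.192) and 0.12 on day 1 (95% interval −0.15 to 0.38, adjusted p = 0.483) did not pass.

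Paired members were also compared by their difference within an array. Tie1 minus Tek was −0.06 on both day 4 arrays and −0.19 and −0.20 on the day 1 arrays, against −0.59 and −0.47 in intact skin, mean differences from intact skin of 0.47 and 0.34. Vegfc minus Vegfd was −1.84 and −2.24 in day 4 wounds and −2.00 and −2.08 in day 1 wounds, against −1.47 and −1.58 in intact skin. Angpt2 minus Angpt1 was 1.07 and 1.03 in day 4 wounds and 1.35 and 1.01 in day 1 wounds, against 1.31 and 1.36 in intact skin, and day 1 wounds overlapped with intact skin. Kdr minus Flt1 was −0.75 and −0.64 in day 4 wounds and −0.74 and −1.08 in day 1 wounds, against −0.79 and −0.80 in intact skin. An exact permutation test of the 3 groups over 90 assignments gave p = 0.0667 for Tie1 and Tek, the smallest value this design allows, 0.200 for Vegfc and Vegfd, and 0.533 for each of the other pairs. Adjusted over the 4 differences these exact values were 0.267, 0.400 and 0.533. With 2 arrays per group this test cannot reach 0.05, so it does not bear on whether the differences changed.

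Apelin passed on neither day. Apln had 7.24 and 7.40 in day 4 wounds and 7.12 and 7.54 in day 1 wounds, against 7.11 and 7.01 in intact skin. The lowest day 1 array was 0.01 above the highest intact array. Its log2 changes of 0.26 on day 4 (95% interval −0.09 to 0.61, adjusted p = 0.234) and 0.27 on day 1 (95% interval −0.08 to 0.62, adjusted p = 0.217) did not pass. Aplnr, the apelin receptor of endothelium, had 8.36 and 8.90 in day 4 wounds and 8.36 and 8.76 in day 1 wounds, against 7.41 and 7.70 in intact skin. It rose by 1.07 on day 4 (adjusted p = 0.0139) and by 1.00 on day 1 (adjusted p = 0.0152). Aplnr did not pass without intact skin replicate 1 on either day, nor without replicate 2 of the wound group compared (highest adjusted p = 0.103). Apela, the other apelin receptor ligand, was dim on all 6 arrays, at 3.98 to 4.53, and was not called on either day.

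**Figure D2:**
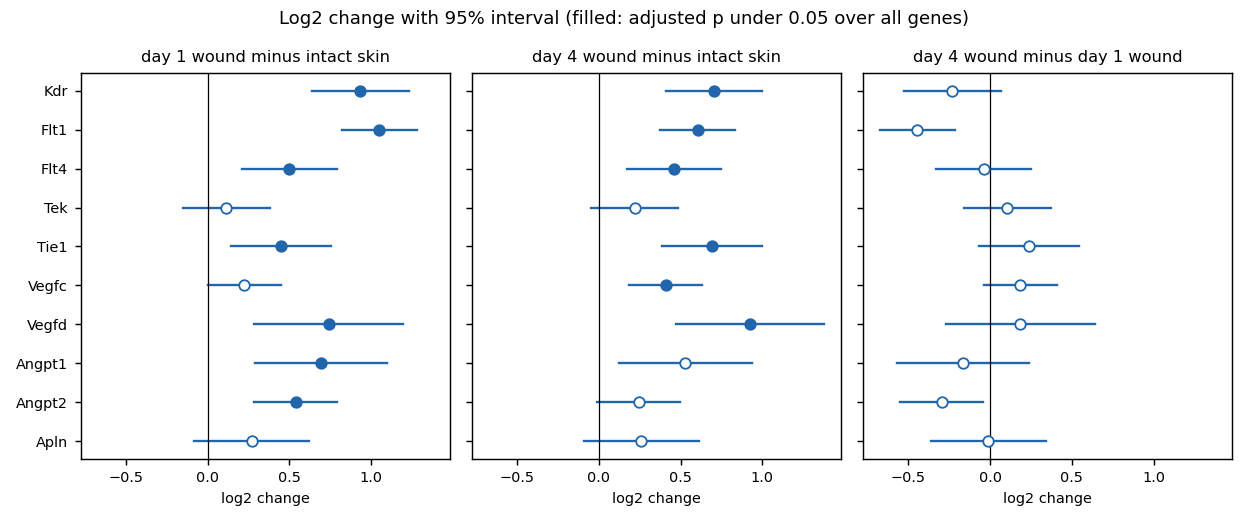
Log2 change of each member in the 3 comparisons, with 95% intervals from the limma fit; filled points passed at an adjusted p under 0.05. Flt1 (1.05) and Kdr (0.94) lead on day 1, Vegfd (0.93) leads on day 4, and no member passed between the days.

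Between the wound days none of the 10 members passed in limma, and 2.23% of all genes did. At an unadjusted p under 0.05 the count was 2, both lower on day 4: Flt1 (log2 change −0.45, 95% interval −0.67 to −0.22, adjusted p = 0.0744) and Angpt2 (log2 change −0.30, interval −0.55 to −0.04, adjusted p = 0.203). These 2 had both day 4 arrays below both day 1 arrays, as 22.0% of all genes did, and Vegfc and Tie1 had both day 4 arrays above both day 1 arrays, as 25.6% did. Flt1 passed as lower on day 4 with cyclic loess scaling (adjusted p = 0.0480) and with the replicate number as a block (adjusted p = 0.0456), and in none of the other alternatives, where its adjusted p ran up to 0.309. For Kdr the day 4 minus day 1 interval was −0.53 to 0.07 and for Tek −0.16 to 0.37. Angpt2, called on day 1 alone, and Vegfc, called on day 4 alone (log2 change 0.18 between the days, adjusted p = 0.341), thus did not pass the test of their difference between the days. Nor did Angpt1, also called on day 1 alone (log2 change −0.165, 95% interval −0.57 to 0.24, adjusted p = 0.658).

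The calls depended on single arrays. Over all genes too, fewer passed against intact skin when any array of either compared group was left out. Flt1 and Kdr were called on day 1 in all 6 fits with 1 array left out (highest adjusted p = 0.00945 and 0.0269). They were the only members called on day 1 without day 1 wound replicate 2 or with intact skin replicate 1 left out, and without the other intact array Angpt2 was called as well. Without day 1 wound replicate 1 Vegfd and Tie1 lost their calls, and Apln was called (adjusted p = 0.0382). On day 4 no member was called without intact skin replicate 1, where Flt1 had an adjusted p of 0.0502 and Kdr 0.0673. Without intact skin replicate 2 the day 4 calls were Kdr, Flt1 and Tie1, and without day 4 wound replicate 2 they were Kdr, Flt1 and Vegfd. Angpt1 passed on day 4 without either day 1 array (lowest adjusted p = 0.0205). All 10 members kept a positive log2 change against intact skin in each of these fits. This follows from every wound array lying above both intact arrays.

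General endothelial transcripts rose in the same biopsies. Of 16 pan-endothelial markers, none of them a member, 13 rose on day 4 and 11 on day 1, and none fell. The shares of all genes were 14.8% and 14.7% for rises and 12.1% and 14.6% for falls. Cldn5, Clec14a, Icam2 and Vwf were not called on day 1, Ecscr and Plvap were not called on day 4, and Robo4 was called on neither day. Eng, a co-receptor of the transforming growth factor family, rose by 1.23 on day 1 and 0.77 on day 4, and Esam, a junction protein, by 0.99 and 0.83. S1pr1, the receptor of sphingosine phosphate, rose by 1.24 and 1.05, and the sialomucin Emcn by 0.92 and 0.74. Without intact skin replicate 1 the counts were 4 on day 4 and 7 on day 1, and Emcn did not pass on day 4 (adjusted p = 0.0505). Without day 4 wound replicate 2 the day 4 count was 6. The mean of the 16 markers was 8.20 and 8.42 in day 4 wounds and 8.33 and 8.49 in day 1 wounds, against 7.66 and 7.79 in intact skin, and their median log2 change was 0.54 on day 4 and 0.82 on day 1. The part of these markers in the members' changes was not tested.

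Set against this panel on each array, the members fell into different positions, described without a test. Tek lay below its intact position on both days: minus the panel mean it was −0.17 and −0.11 in day 4 wounds and −0.26 and −0.43 in day 1 wounds, against 0.22 and 0.23 in intact skin. Apln, Vegfc, Angpt2 and Flt4 also lay below their intact position on all wound arrays, with day 1 shifts of −0.41, −0.46, −0.14 and −0.18 and day 4 shifts of −0.33, −0.18, −0.34 and −0.13. Flt1 lay above it on day 1 by 0.37 and near it on day 4 (0.02), and Kdr by 0.25 and 0.12. With the median of the panel in place of the mean, whose shift was 1.06 on day 1 and 0.78 on day 4, Tek, Apln, Vegfc, Angpt2 and Flt4 were again below on both days. Flt1 and Kdr then changed sign on both days (−0.01 and −0.12 on day 1), so their position relative to the panel depends on how it is summarised. Probe sets can differ in how steeply they respond, which limits this comparison.

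**Figure D3:**
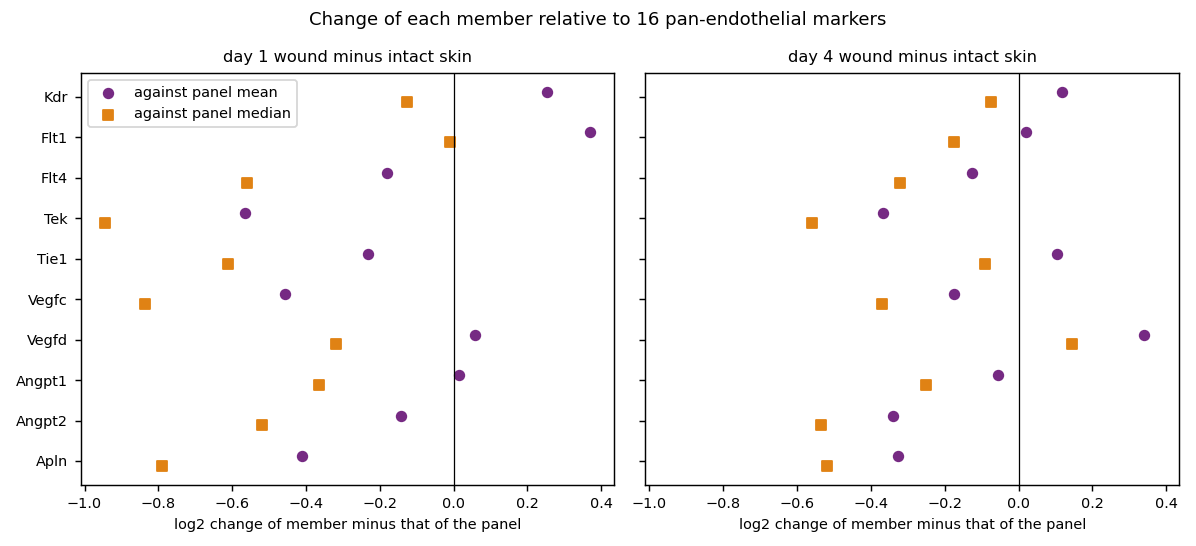
Log2 change of each member minus the change of 16 pan-endothelial markers, taken as their mean (circles) or median (squares) per array, on day 1 and day 4 against intact skin. Tek lies at −0.57 (mean) and −0.94 (median) on day 1, and Kdr and Flt1 lie on either side of 0 depending on the summary.

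Of all genes 14.7% rose and 14.6% fell on day 1, and 14.8% rose and 12.1% fell on day 4, and each list count is to be read against these shares. Among 85 other genes of 9 angiogenic pathway lists 36 rose and 16 fell on day 1, which is 52 against 29.3% of all genes called in either direction, and 32 rose and 9 fell on day 4, which is 41 against 26.9%. These shares belong to the fit of all 6 arrays. Without intact skin replicate 1 fewer pathway genes were called on both days, and fewer of all genes were called too. Only part of the pathway calls held in all 6 fits with 1 array left out.

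Genes that modulate the angiopoietin receptors gave 4 rises and 1 fall among 7 measured on day 1, and 3 rises and 1 fall on day 4 (median log2 changes 0.43 and 0.30; rises 2 to 3 and 1 to 3 with 1 array left out). Svep1, a matrix protein that binds TIE1, had the largest change, at 10.16 and 10.84 in day 1 wounds, against 8.59 and 8.61 in intact skin (log2 change 1.90, adjusted p = 0.00140), and 10.09 and 10.37 in day 4 wounds (1.63, adjusted p = 0.00319). Ptprb, the endothelial phosphatase that restrains TEK, rose by 0.43 on day 1 and 0.59 on day 4 (adjusted p = 0.0205 and 0.00790). Dok2, an adaptor of TEK that blood cells also express, rose by 0.77 and 0.64. Foxo1, a transcription factor held inactive by TEK signalling, fell by 0.41 on day 1 and 0.36 on day 4 (adjusted p = 0.0122 and 0.0215). Svep1 passed on both days with any array left out. Ptprb and Foxo1 did not pass on either day with either intact array left out. On day 1 Ptprb was also lost without either day 1 array, and Foxo1 without day 1 wound replicate 2. On day 4 Foxo1 was also lost without either day 4 array, and Dok2 did not pass without intact skin replicate 1 or day 4 wound replicate 2.

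Of 12 Notch signalling genes 6 fell and 2 rose on day 1, and 3 fell and 2 rose on day 4, with median log2 changes of −0.34 and −0.22 (falls 3 to 6 and 1 to 4 with 1 array left out). Heyl, a Notch target, averaged 7.16 ± 0.22 in day 4 wounds and 7.01 ± 0.014 in day 1 wounds, against 8.93 ± 0.064 in intact skin (SD, 2 arrays each) (log2 changes −1.77 and −1.91, adjusted p = 3.10e-04 and 1.50e-04). Notch1 fell by 0.62 on day 4 and 1.03 on day 1 and Hes1 by 0.50 and 0.53, while Rbpj, the DNA-binding partner of Notch, rose by 0.92 and 1.02. Notch4, a Notch receptor, was the other gene of this list that rose on both days. It lost each call without either intact array or either array of the wound group compared. Dll4, the Notch ligand of sprout tips, had log2 changes of −0.02 and 0.23 that did not pass (adjusted p = 0.901 and 0.214). Of 13 guidance genes 4 fell and 2 rose on day 4, and 5 fell and 2 rose on day 1, yet the median log2 change was 0.05 and 0.10, and after quantile scaling the day 4 median was negative. The 2 rises among 13 are near the share of all genes, 14.8% on day 4 and 14.7% on day 1. With 1 array left out the falls numbered 2 to 4 on each day and the rises 0 to 4 on day 4 and 1 to 2 on day 1, with the lowest counts on both days without intact skin replicate 1. The receptors Robo1 and Unc5b fell by 1.07 and 1.48 on day 4 and by 1.43 and 1.77 on day 1, whereas the semaphorin Sema3a rose by 0.70 and 1.08 and the receptor Plxnd1 by 0.96 and 0.64. Epithelium expresses several of these genes, and the 8 hair follicle markers averaged 10.13 and 6.60 in day 4 wounds and 8.68 and 6.18 in day 1 wounds, against 11.70 and 11.73 in intact skin; their part in these falls was not tested. Of the genes named here Heyl, Rbpj, Robo1 and Unc5b passed on both days with any array left out. Notch1 and Sema3a lost their day 4 calls without day 4 wound replicate 2 or either intact array, Hes1 its day 4 call without intact skin replicate 2, and Plxnd1 both calls without intact skin replicate 1 and its day 1 call also without day 1 wound replicate 2 or intact skin replicate 2.

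Of 11 tip cell genes 4 rose and none fell on day 4, and 3 rose and 1 fell on day 1 (medians 0.36 and 0.36, rises 1 to 4 on each day with 1 array left out). The basement membrane gene Nid2 rose by 0.79 and the chemokine receptor Cxcr4 by 0.73 on day 4 (adjusted p = 0.00293 and 0.00869), and the peptide Adm, which hypoxia induces, by 1.28 on day 1 (adjusted p = 0.00482). The channel subunit Kcne3 rose by 0.67 on day 4 and 0.57 on day 1 and did not pass on either day without an intact array or replicate 2 of the wound group. Against the list, the laminin chain Lamb1 fell by 0.51 on day 1, but did not pass without either day 1 array or intact skin replicate 2. Cxcr4, also a leukocyte gene, did not pass without intact skin replicate 1 (adjusted p = 0.0663). Among 10 angiogenesis inhibitors 5 rose and 1 fell on day 4, and 6 rose and 2 fell on day 1 (medians 0.39 and 0.65). The thrombospondin Thbs2 rose by 1.42 on day 4 and 1.07 on day 1, the protease Adamts1 by 0.87 and 1.48, and the chemokines Cxcl10 and Pf4 by 2.25 and 2.38 on day 4 and 3.78 and 2.56 on day 1. Against this list Spry4, an inhibitor of receptor signalling, fell by 0.57 and 0.40 and Col18a1, the precursor of endostatin, fell by 0.33 on day 1; on day 1 neither passed with any 1 of the day 1 or intact arrays left out, nor Spry4 on day 4 without day 4 wound replicate 2 or intact skin replicate 2. Between the days Thbs1 and Adamts1 were lower on day 4 (log2 changes −0.93 and −0.61, adjusted p = 0.0223 and 0.0436), and with any 1 array left out no inhibitor gene passed between the days.

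Of 12 endothelial transcription factors 5 rose on day 4, 6 rose on day 1 and none fell (medians 0.34 and 0.39, rises 3 to 5 and 2 to 5 with 1 array left out). Ets1 rose by 0.88 and 1.13 and Fli1 by 1.24 and 1.08 on days 4 and 1, both of them ETS factors that leukocytes share. Lyl1 rose by 0.68 and 0.35, and Epas1, the hypoxia-inducible factor of endothelium, by 0.92 on day 1 (adjusted p = 0.00911). The endothelium-restricted factor Erg had log2 changes of 0.09 and 0.20 that did not pass (adjusted p = 0.658 and 0.323). Ets1 and Fli1 passed on both days with any array left out, Epas1 did not without either intact array, and Lyl1 passed on day 1 in 1 of the 6 fits. Of 12 hypoxia sensing genes 7 rose on day 4, 9 rose on day 1 and none fell (medians 0.43 and 0.66, rises 4 to 7 and 4 to 8 with 1 array left out). The glucose carrier Slc2a1 rose by 1.69 and 1.84, Bnip3 by 1.23 and 1.39, the oxygen sensor Egln3 by 1.14 on both days and Hif1a by 0.72 and 1.06. Macrophage markers averaged 10.54 and 10.58 in day 4 wounds and 10.34 and 10.51 in day 1 wounds, against 8.23 and 8.58 in intact skin, with all 10 higher on both days. All 9 neutrophil markers rose on both days, to averages of 9.28 and 9.52 in day 4 wounds and 10.46 and 10.87 in day 1 wounds, against 5.66 and 5.78 in intact skin. The part of leukocytes in the pathway changes was not tested.

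**Figure D4:**
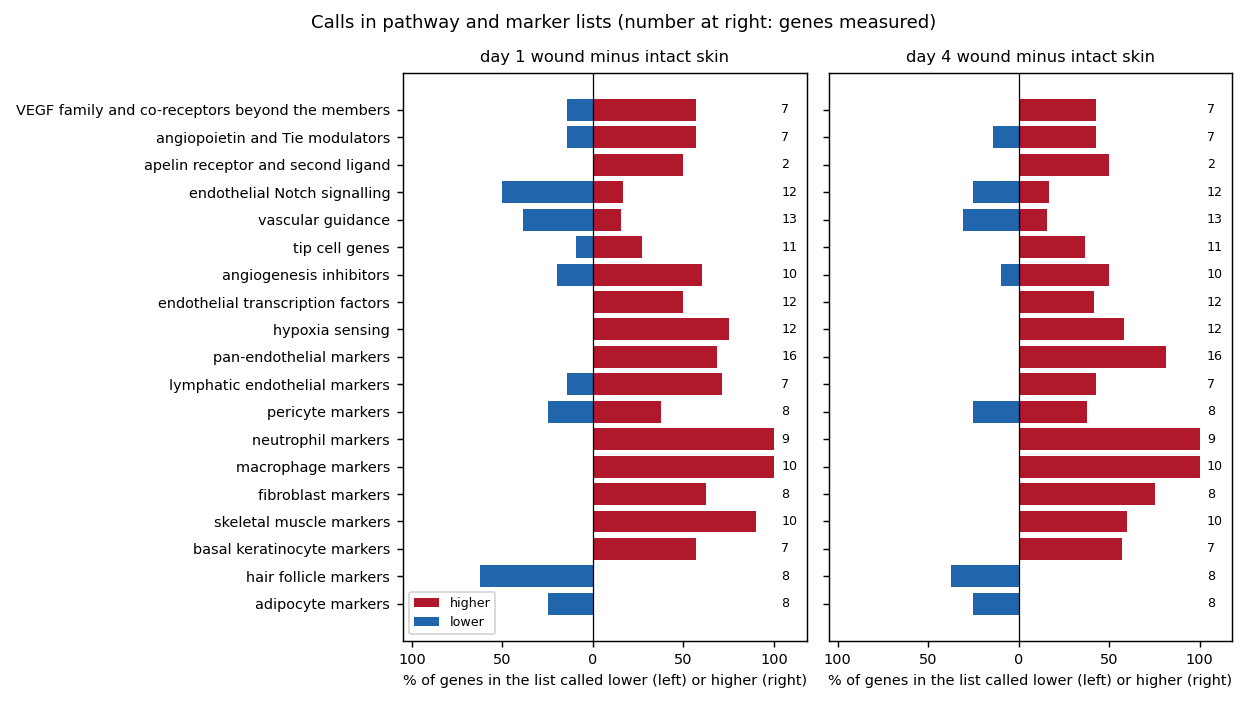
Share of the measured genes of each pathway and marker list called lower (left bars) or higher (right bars) at an adjusted p under 0.05, on day 1 and day 4 against intact skin; the number at the right is the genes measured. All calls in the pan-endothelial, hypoxia and leukocyte lists were higher. Notch, guidance and hair follicle lists had more calls lower than higher, though the median log2 change of the guidance list was 0.10 on day 1 and 0.05 on day 4.

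Lymphatic transcripts were listed because FLT4 and its ligands act there. Of 7 measured markers 3 rose and none fell on day 4, and 5 rose and 1 fell on day 1 (medians 0.43 and 0.41). Pdpn rose by 1.51 and 2.26, and fibroblasts and keratinocytes of wounds express it too. Reln rose by 0.48 and 0.40 and the integrin chain Itga9 by 0.64 and 0.62. The hyaluronan receptor Lyve1, also a macrophage gene, rose by 1.17 on day 1 (adjusted p = 0.0166) and had a log2 change of 0.43 on day 4 (adjusted p = 0.260). Prox1, the defining transcription factor of lymphatic endothelium, had 6.00 and 6.13 in day 4 wounds and 6.33 and 6.31 in day 1 wounds, against 6.01 and 5.85 in intact skin, and rose on day 1 (log2 change 0.39, adjusted p = 0.0194). Against the list Sema3d fell by 0.38 on day 1. Without intact skin replicate 1 the count of lymphatic markers that rose was 0 on day 4, and Lyve1, Reln and Itga9 did not pass on day 1 while Pdpn did. Without day 1 wound replicate 2 the day 1 count was 1, Prox1 did not pass without either day 1 array or intact skin replicate 2, and Sema3d passed in 1 of the 6 fits.

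Profiles were compared by the root mean square difference between values centred over the 6 arrays, among all 19938 genes. The nearest gene to Flt1 was Eps8, at 0.04 log2 units, with log2 changes of 1.09 on day 1 and 0.57 on day 4. The nearest to Kdr was Nlrc5 at 0.06, with 1.01 and 0.72, and to Tie1 it was Gnb4 with 0.46 and 0.73. Vegfc was nearest to Klk5 at 0.02, and Vegfd to Ccr7 at 0.09, the loosest of the 10 nearest matches. Angpt2 was nearest to Cyth3 and Angpt1 to Il16, each within 0.05. No member was among the 3 nearest genes of another. Among the members themselves Vegfc and Tek lay closest, at 0.08, and Kdr and Flt1 were 0.14 apart.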

How the data were processed

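RNA of 6 skin samples was labelled and hybridised to an Affymetrix mouse gene array, and RNA integrity numbers were 7.7 to 9.1 per the labels. What the authors deposited is a table of log2 values, 1 per probe set and array, for which RMA (background correction, quantile normalization, probe summary) is named per the submitters' processing notes (version not given in the sources used here). They cover 35556 probe sets, of which 21789 carried 1 gene symbol, 1621 carried several and 12146 were not in the array annotation. The brightest probe set per gene gave 19938 genes. The 3 contrasts came from 1 fit of all 6 arrays in limma 3.58.1 (R 4.3.3, a mean per group, eBayes, 3 residual and 3.4 prior degrees of freedom), with two-sided p-values adjusted by Benjamini-Hochberg over all genes and a threshold of 0.05. The fit was tested on simulated data. Depth does not apply, and the number of arrays limits the precision. Named were all members, up to 4 genes per list with the smallest F test p, listed genes that went against their list, and the nearest profiles; Vegfb, Dll4, Erg, Prox1 and Thbs1 were added after their values were seen. Members and lists were chosen with earlier results of these data known. Of 88 pathway and 92 marker entries 86 and 91 were matched (not Angptl2, Vash1 and Ccl21a). Alternatives were quantile, cyclic loess and median scaling, a trended or robust prior, 2 groups alone, removal of the dimmest 30%, a replicate block, the mean over probe sets and each array left out.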

Additional observations from a re-analysis of the deposited data

How the results depend on the processing

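Most of the values that moved did so with the median of the endothelial panel or with an array left out. Fits with an array left out are given further below. In the other fits day 1 calls stood at 7 members, except with the dimmest 30% removed, where Angpt1 was not tested and 6 passed. Day 4 calls stood at 6 in them, except for 7, with Angpt1, when only the 2 groups compared were fitted and with the replicate number as a block. Between the days 1 member, Flt1, was called lower with cyclic loess. Over all genes, fitting only the 2 wound groups gave 8 genes higher and 9 lower on day 4 than on day 1, against 217 and 227. Quantile scaling moved the day 4 change of Angpt2 minus Angpt1 to −0.33 (main value −0.28) and the day 1 change of Vegfc minus Vegfd to −0.42 (main value −0.52). The cause of these shifts was not tested.

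With the replicate block 348 genes were lower on day 4 than on day 1, and 1 member, Flt1, was among them. Deviations of same-numbered arrays from their group means correlated at 0.685 between the wound days but at 0.0139 and 0.0227 between day 1 or day 4 wounds and intact skin. The main fit did not take the numbers as pairs. A shift shared by same-numbered wound arrays cancels from the difference between the day means but stays in the spread used by the main fit. Only the replicate block has a term for the number, and it applies that term to the intact arrays as well.

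With the panel median, changes relative to the panel on days 1 and 4 were −0.125 and −0.075 for Kdr, −0.01 and −0.17 for Flt1, −0.56 and −0.32 for Flt4, −0.83 and −0.37 for Vegfc, −0.36 and −0.25 for Angpt1, −0.52 and −0.54 for Angpt2, −0.94 and −0.56 for Tek, −0.61 and −0.09 for Tie1 and −0.79 and −0.52 for Apln, and −0.32 and 0.14 for Vegfd, the only positive value.

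With 1 array left out, genes called higher numbered 1773 to 2901 on day 1, 1393 to 2760 on day 4 and 4 to 67 between the days. Genes called lower numbered 1376 to 2772, 853 to 2147 and 5 to 117. Members called higher numbered 2 to 7 on day 1 and 0 to 7 on day 4, and 0 to 0 were called lower or between the days. The day 4 minus day 1 change crossed 0 for Flt4 (−0.175 to 0.095), Vegfd (−0.115 to 0.485), Angpt1 (−0.415 to 0.085), Tek (−0.035 to 0.245) and Apln (−0.22 to 0.2). With 2 arrays per group a lone array is assumed to vary like the other groups, and dim signal limits Angpt1.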

Other observations

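Markers of other cells in the biopsies changed as well, and their part in the changes of the angiogenic genes was not tested. Their counts stand beside 14.7% of all genes rising and 14.6% falling on day 1, and 14.8% and 12.1% on day 4. Of 8 pericyte markers 3 rose and 2 fell on both days, and with 1 array left out 1 to 3 rose on day 4 and 0 to 3 on day 1. The receptor Pdgfrb had 9.71 and 10.02 in day 4 wounds and 9.57 and 10.02 in day 1 wounds, against 8.79 and 8.88 in intact skin (log2 changes 1.03 and 0.96, adjusted p = 0.00692 and 0.00734), and Rgs5 rose by 0.80 and 0.54, while the proteoglycan gene Cspg4 fell by 0.51 and 0.38 and Cox4i2 by 0.59 on both days. Without intact skin replicate 1 Pdgfrb did not pass on either day, nor Rgs5 on day 1 (Rgs5 also without day 1 wound replicate 2). Cspg4 and Cox4i2 did not pass on either day with intact skin replicate 2 left out. Of 8 fibroblast markers 6 rose on day 4 and 5 on day 1 (5 to 8 and 3 to 5 with 1 array left out), the small proteoglycans Lum by 1.62 and 1.12 and Dcn by 0.60 and 0.51, the receptor Pdgfra by 1.43 and 1.74 and Dpt by 0.71 and 0.36. Dpt did not pass on day 1 with any 1 of the day 1 or intact arrays left out.

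Of 10 skeletal muscle markers 6 rose on day 4 and 9 on day 1, and with 1 array left out 2 to 9 and 7 to 9 did, the fewest on both days without intact skin replicate 2. Of 7 basal keratinocyte markers 4 rose on each day, but 2 rose on day 4 in each of the 6 fits with 1 array left out, and 2 to 4 on day 1, with 2 without day 1 wound replicate 1 or either intact array. Of 8 adipocyte markers 2 fell on each day (1 to 3 on each day with 1 array left out, with 1 without either intact array). List averages were 10.55 and 10.80 in day 4 wounds and 11.00 and 11.05 in day 1 wounds, against averages of 10.15 in intact skin, for muscle, and 9.69 and 9.93 in day 4 wounds and 9.84 and 9.81 in day 1 wounds, against 10.02 and 9.94 in intact skin, for adipocytes. Of 8 hair follicle markers 3 fell on day 4 and 5 on day 1, and with 1 array left out 2 to 5 did on each day. The day 4 count was 5 without day 4 wound replicate 1, and the day 1 count was 2 without day 1 wound replicate 2 or either intact array.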
